A study of Mus musculus with 19 samples.

Results

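The genes described here encode the pyruvate dehydrogenase complex and the enzymes that switch it off and on. They are the subunit genes Pdha1, Pdhb, Dlat, Dld and Pdhx, the kinase genes Pdk1, Pdk2, Pdk3 and Pdk4, and the phosphatase gene Pdp1. Members were chosen by name, as every array probe whose platform symbol or older alias is one of these 10 genes. They are 10 of the 16593 genes that the array's table names, and they have 11 of its 25697 probes, with Pdhb on 2 probes and every other gene on 1. Of the 11 probes, 10 passed the filter on dim probes and were tested, and the Pdhx probe did not pass.

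The samples are left ventricles of male MerCreMer mice back-crossed to C57Bl6/J and aged 12 to 20 weeks. All of them, controls included, carry a transgene for Cre recombinase joined to a mutated estrogen receptor. A cardiac myosin heavy chain promoter drives it, so that tamoxifen activates Cre in heart muscle cells. Tamoxifen was injected into the peritoneum in peanut oil at 1 mg (40 mg/kg) a day. The groups are control mice (5 arrays), day 2 of the injections (4 arrays), day 3 of the injections (3 arrays), day 10, after 5 days of injections and 5 further days (3 arrays), and day 28, after 5 days of injections and 23 further days (4 arrays). The series describes a passing cardiomyopathy that is deepest at day 10. The samples include no vehicle group and no mice that lack Cre but received tamoxifen. Effects of the drug, of Cre and of time therefore cannot be told apart.

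The pyruvate dehydrogenase complex sits in the mitochondrial matrix and converts pyruvate to acetyl-CoA, which joins glycolysis to the TCA cycle. Pdha1 and Pdhb encode the α and β chains of its first enzyme, Dlat the lipoate-bearing core enzyme that makes acetyl-CoA, Dld the dihydrolipoamide dehydrogenase that re-oxidises the lipoate, and Pdhx the protein that anchors Dld to the core. The kinases phosphorylate the α chain and silence the complex, and the phosphatases Pdp1 and Pdp2 remove that phosphate. The adult heart burns mainly fatty acids, and Pdk4, which fasting and fatty acids induce through PPAR receptors, is known as a kinase that holds pyruvate oxidation down in heart and skeletal muscle.

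The promoters of 4 members are shown. The Dlat and Pdk2 probes fell most at day 10, Pdk3 alone was called higher then, and Pdk4 was added as the kinase of fasting. Each is the 250 bases before the gene's start in RefSeq (GRCm38.p6), read 5′ to 3′ on the minus strand, on which all 4 genes lie. Capitals mark the GC box GGGCGG, the CCAAT box (read as its complement ATTGG where it lies on the other strand) and the E-box CACGTG.
Dlat, chr9:50659781-50660030: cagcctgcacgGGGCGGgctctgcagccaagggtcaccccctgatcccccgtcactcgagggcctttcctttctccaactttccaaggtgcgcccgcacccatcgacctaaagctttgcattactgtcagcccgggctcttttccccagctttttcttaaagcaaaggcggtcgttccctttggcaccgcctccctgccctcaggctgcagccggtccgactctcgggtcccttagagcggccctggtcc
Pdk2, chr11:95041372-95041621: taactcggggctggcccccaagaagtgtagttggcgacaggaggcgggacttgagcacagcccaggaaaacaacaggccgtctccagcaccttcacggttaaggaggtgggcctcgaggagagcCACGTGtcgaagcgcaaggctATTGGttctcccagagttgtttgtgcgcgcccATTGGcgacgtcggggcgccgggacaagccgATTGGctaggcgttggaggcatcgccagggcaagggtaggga
Pdk3, chrX:93832151-93832400: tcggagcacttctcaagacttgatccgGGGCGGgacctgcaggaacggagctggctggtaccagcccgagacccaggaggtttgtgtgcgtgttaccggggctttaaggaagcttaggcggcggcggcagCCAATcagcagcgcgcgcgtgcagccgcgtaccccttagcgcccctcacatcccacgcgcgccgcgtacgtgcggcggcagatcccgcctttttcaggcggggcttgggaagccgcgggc
Pdk4, chr6:5496279-5496528: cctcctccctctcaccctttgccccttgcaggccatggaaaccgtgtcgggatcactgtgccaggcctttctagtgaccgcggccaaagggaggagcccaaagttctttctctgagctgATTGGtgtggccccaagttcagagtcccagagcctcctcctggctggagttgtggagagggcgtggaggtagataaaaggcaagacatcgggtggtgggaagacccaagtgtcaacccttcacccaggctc
Pdk2 has a second start in RefSeq, whose window is not printed. The Pdk2 window shown held 3 CCAAT boxes, at 105, 73 and 42 bases before the start, and the E-box at 126 bases. The Pdk3 window held a GC box at 223 bases and a CCAAT box at 120 bases, the Pdk4 window a CCAAT box at 131 bases, and the Dlat window a GC box at 239 bases. These letters are common: of 32851 windows of this length in the RefSeq table, 33.8% held CCAAT, 32.7% GGGCGG and 6.02% CACGTG, with both strands searched. The estrogen-related receptor half-site AAGGTCA (4.08% of windows), the FOXO site GTAAACA (3.17%) and the direct repeat 1 site of PPAR receptors (0.0335%) matched none of the windows of the 9 members with an entry. The NRF1, cAMP response element and ETS sites matched none either. The glucocorticoid half-site AGAACA (16.1% of windows) matched at 153 and 138 bases in a Pdk1 window that is not printed. Pdp1 had no entry. A match or its absence in these windows is a description of letters alone.

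The 19 arrays had been normalized to the same distribution before deposit, with a median intensity of 191.479 on each. Controls 4 and 5 stood apart from controls 1 to 3 on the second principal component, at 20.55 and 20.08 against 1.587 to 4.376. The day 28 arrays lay beside controls 4 and 5 on that component, at 21.11 to 23.1, and the day 10 arrays at 19.65 to 24.09. Day 2 replicate 3 lay at -27.68 on that component, where the other day 2 arrays lay between -11.81 and -10.44. Day 3 replicate 2 lay at 40.23 on the first component, where the other day 3 arrays lay at 4.239 and 16.56. Heart muscle markers (9 genes) summed to 193898 to 217956 intensity units at day 10, against 250498 to 295043 in controls, and macrophage markers (8 genes) to 41142 to 67263 at day 10, against 6233 to 16237 in controls. Much of the heart muscle sum comes from Myl2, Myl3 and Actc1. They read 45308 to 57814 on every array, near the highest deposited value. The median change of the 9 heart muscle markers at day 10 was -1.20 on the log2 scale. In whole tissue, fewer cells of a type and less RNA per cell cannot be told apart. Fold changes below are differences of log2 background-corrected intensity, tested with limma over 19272 probes and called at a Benjamini-Hochberg adjusted p under 0.05.

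**Figure D1:**
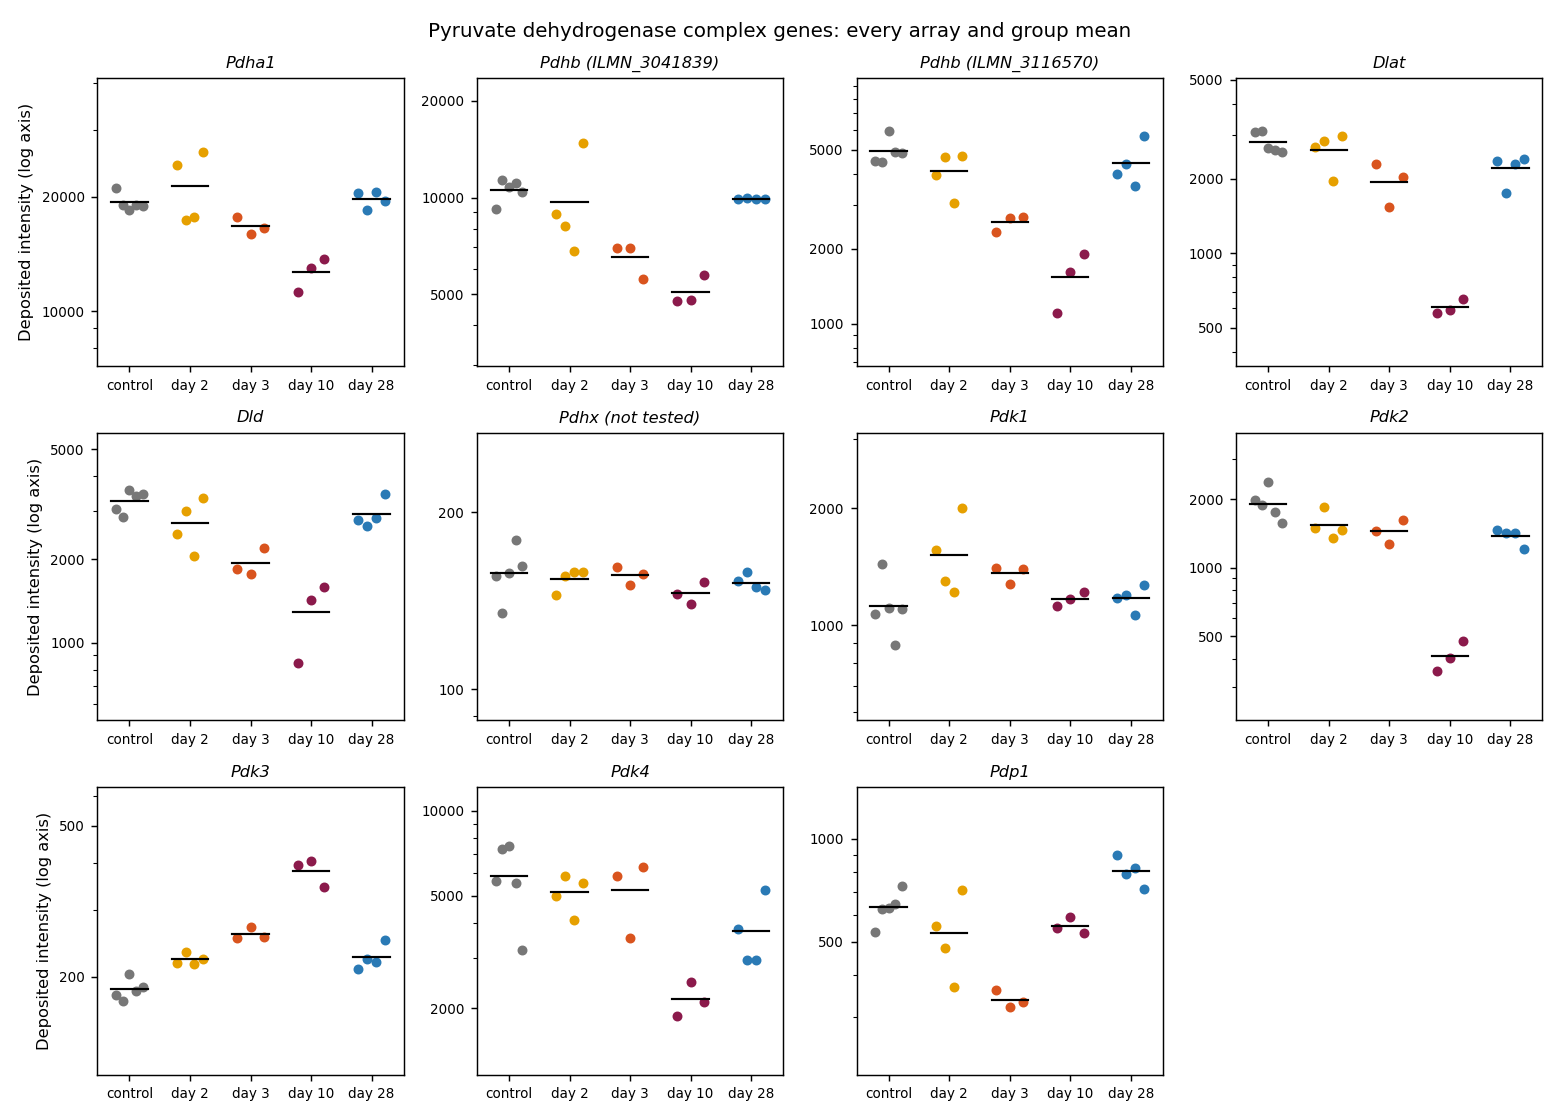
Deposited intensity (log axis) of the 11 member probes on each of the 19 arrays, by group in order of time, with a line at each group mean, and a separate axis range for each probe. Dlat and Pdk2 are lowest at day 10, where Dlat lies between 573 and 655, while Pdk3 lies at its highest, between 344 and 403.

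At day 10 most of the complex and its regulators were lower than in control hearts. Of the 10 probes, 8 were called, 1 higher and 7 lower, where 35.8% of all probes were called in either direction (17.7% higher and 18.1% lower). The arrays of both groups did not overlap for 8 of the 10, as for 36% of all probes. The called values covered 7 of the 9 genes tested, and 7 probes had changed at least 2-fold, as had 11.1% of all probes. The median over the 9 genes was -1.07 on the log2 scale, beside -0.03 over all probes.

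The probe of the core enzyme gene Dlat fell further than any other tested subunit probe. Its intensity was 573, 588 and 655 on the day 10 arrays, against 3093, 3107, 2653, 2621 and 2561 on the control arrays. The groups lay far apart, and the change was -2.37 (SE 0.16), 5.17-fold lower, with an adjusted p of 7.53e-11 by limma.

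Pdha1, the α chain that the kinases phosphorylate, had the smallest change of the called subunit probes. It read 11219.7, 12984 and 13712 at day 10, against 21052, 19071, 18490.0, 19071 and 18954 in controls. No day 10 array reached the lowest control, and the change was -0.62 (SE 0.13, limma adjusted p 0.00055). Within the same arrays, the change of the Dlat probe was 1.75 log2 units further down than that of the Pdha1 probe (difference -1.75). This is a difference between probes, which need not hold between genes. An exact two-sided permutation test over the 3 day 10 and 5 control arrays gave p = 0.0179, the smallest that 56 arrangements allow. It was also 0.0179 after adjustment over the 4 pairs of genes compared, which were chosen after their values were seen.

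Pdhb, the β chain, fell on both of its probes, by unequal amounts. The brighter probe, ILMN_3041839, read 4750.1, 4794 and 5748 at day 10, against 9234, 11319, 10773, 11081 and 10426 in controls. The other, ILMN_3116570, read 1102, 1617 and 1901 at day 10, against 4506, 4467, 5933, 4896 and 4866 in controls. Neither probe's groups overlapped. The changes were -1.07 (SE 0.17, limma adjusted p 1.79e-05) and -1.76 (SE 0.18, limma adjusted p 3.33e-08).

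Dld, which serves the sister 2-oxoacid dehydrogenases as well, was lower on every day 10 array. It read 846, 1429 and 1597 at day 10, against 3030.1, 2836, 3555, 3387 and 3440.2 in controls. The change was -1.44 (SE 0.18), 2.72-fold lower, with an adjusted p of 7.64e-07 by limma. The Pdhx probe, with a mean of 154 over all arrays, lay at the 10.1th percentile of all probes. It read between 139.5 and 152 at day 10 and between 135 and 179 in controls, and no change of Pdhx could be measured.

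The kinases went in different directions. Pdk2, a kinase found in most tissues, had the largest fall of all tested member probes at day 10. It read 353, 401 and 476 at day 10, against 1992, 1880.5, 2369, 1765 and 1566 in controls. The groups did not overlap, and the change was -2.47 (SE 0.15), 5.54-fold lower, with an adjusted p of 2.47e-11 by limma.

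Pdk4 fell too, and its control arrays were widely spread. It read 1871, 2483 and 2109.7 at day 10, against 5649.7, 7337, 7515, 5551 and 3224 in controls. Control 5 was the lowest control and still lay above every day 10 array. The change was -1.42 (SE 0.24), 2.68-fold lower, with an adjusted p of 3.67e-05 by limma. Within the same arrays the change of the Pdk2 probe was further down than that of the Pdk4 probe, with a difference of -1.05. The exact two-sided permutation p was 0.0179, the smallest possible, for a pair chosen after its values were seen. The 2 probes of 1 gene also differed at day 10, at -1.07 and -1.76 for Pdhb and -2.36 and -1.30 for Pdp2. The -1.05 is therefore a difference between probes, which need not hold between genes.

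Pdk3, a kinase with little expression in the adult heart, was the one member that rose. It read 393, 403 and 344 at day 10, against 179, 172, 204, 184 and 188 in controls. The groups did not overlap, and the change was 1.49 (SE 0.12), 2.82-fold higher, with an adjusted p of 1.37e-09 by limma. This probe is dim, and the size of its change depended on the scale, at 1.04 without background correction and 1.88 with an offset of 16. The difference between the changes of Pdk2 and Pdk3 within the arrays was -3.96 (exact two-sided permutation p = 0.0179, the smallest possible). The pair joins the member probe that fell most and the member probe that rose. It was chosen after its values were seen, so the p is no independent support.

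Pdk1, known as a kinase that hypoxia induces, gave no call at day 10. It read 1123, 1172 and 1215 at day 10, against 1069, 1435, 1111, 892 and 1105 in controls. The day 10 arrays lay within the range of the controls, and the difference was 0.08, with a 95% interval of -0.24 to 0.41 and a limma adjusted p of 0.74.

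The phosphatases also parted. Pdp1, the calcium-sensitive phosphatase of muscle, read 549, 590.1 and 529 at day 10, against 534, 625, 625, 646 and 727 in controls. The difference of -0.20 (95% interval -0.56 to 0.15) was not called (limma adjusted p 0.404). Pdp2, the other phosphatase, which is not among the 10 genes, read on its brighter probe 394, 406 and 386 at day 10, against 2129, 1689, 1505, 1579 and 1704 in controls. Its change was -2.36 (limma adjusted p 3.74e-10), beside -1.30 on its dimmer probe. On the brighter probe the difference from Pdp1 within the arrays was -2.16 (exact two-sided permutation p = 0.0179, the smallest possible). The dimmer probe was not compared with Pdp1, and the pair was chosen after its values were seen.

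**Figure D2:**
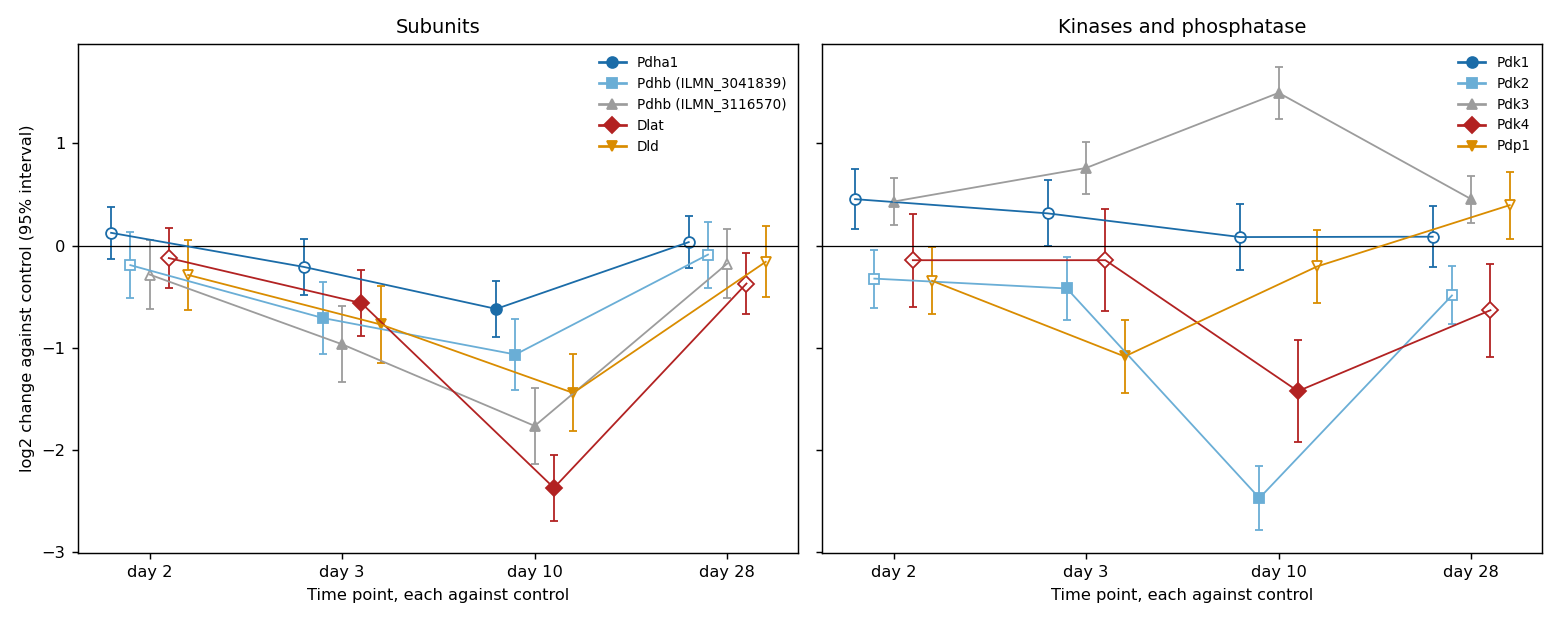
Change of each of the 10 tested member probes at each time point against control, on the log2 scale, with 95% intervals; filled points were called and open points were not. At day 10 Pdk3 stands at 1.49, Pdk1 and Pdp1 cross 0, and the other 7 probes lie between -2.47 and -0.62.

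The early arrays differed in fewer members. On day 2 of the injections 1 of the 10 probes was called, where 6.64% of all probes were (3.39% higher and 3.24% lower). The arrays did not overlap for 1 of the 10, against 8.48% of all probes. The called probe was Pdk3, which read 217, 233, 216 and 223 at day 2, against 179, 172, 204, 184 and 188 in controls. All 4 day 2 arrays lay above every control, and the change was 0.43 (SE 0.11), 1.35-fold higher, with an adjusted p of 0.0196 by limma. Pdk3 was not called at day 2 with controls 1 to 3 alone, nor without control 2 (limma adjusted p 0.0505) or day 2 replicate 2 (limma adjusted p 0.0611). In both of these single-array cases Pdk1 was called instead (0.55, limma adjusted p 0.0179, and 0.52, limma adjusted p 0.0473). The count was 2 without day 2 replicate 3 and 3 without day 2 replicate 4. Pdk1 was 0.45 higher at day 2 (95% interval 0.16 to 0.75) without a call (limma adjusted p 0.0583). It read 1564, 1297, 1219 and 1996 at day 2, which overlapped the controls.

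By day 3 of the injections, 7 of the 10 probes were called, 1 higher and 6 lower, where 28.4% of all probes were called (14.1% higher and 14.3% lower). The arrays did not overlap for 7 of the 10, against 27.4% of all probes. Among subunits, Dld changed by -0.77 (SE 0.18, limma adjusted p 0.00207) and Dlat by -0.56 (SE 0.16, limma adjusted p 0.00787). The Pdhb probes ILMN_3041839 and ILMN_3116570 changed by -0.71 and -0.97. Pdha1 read 17654, 15988 and 16564 at day 3, below every control, with a difference of -0.21 that was not called (limma adjusted p 0.274). Without day 3 replicate 2, Dlat was no longer called (-0.39, limma adjusted p 0.101). On the same arrays 4 of 4 atrial heart muscle markers were higher (median 2.12, summed intensity 32555 to 53879 at day 3 against 11656 to 47608 in controls), and 4 of 9 general heart muscle markers were lower and 1 higher (median -0.16). The part of either in the day 3 values was not tested.

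Pdp1 had its deepest change at day 3, unlike Dlat and Pdk2. It read 359.8, 321 and 332 at day 3, against 534, 625, 625, 646 and 727 in controls. The groups did not overlap, and the change was -1.08 (SE 0.17), 2.12-fold lower, with an adjusted p of 2.93e-05 by limma. At day 10 Pdp1 was higher than at day 3 by 0.88 (SE 0.19, limma adjusted p 0.000881).

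Among the kinases at day 3, Pdk3 was 0.76 higher (SE 0.12, limma adjusted p 3.39e-05), with 253, 269.9 and 255 at day 3. Pdk2 read 1446, 1271 and 1616 at day 3, which overlapped the lowest control, with a change of -0.42 (SE 0.15, limma adjusted p 0.0373). That call was lost without any one of controls 1, 2 and 3 or of day 3 replicates 1 and 2. Pdk4 differed by -0.14 at both day 2 and day 3 and was not called (limma adjusted p 0.812 and 0.731).

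Between the 2 early times, 3 of the 10 probes were called at day 3 against day 2, all lower, where 18.7% of all probes were called (8.74% higher and 10% lower). They were Pdp1 (-0.74, limma adjusted p 0.00471) and both Pdhb probes (-0.52 for ILMN_3041839 and -0.68 for ILMN_3116570). Without day 2 replicate 3 the count was 6. The call of ILMN_3041839 was weak: without day 2 replicate 4 its difference was -0.29 (limma adjusted p 0.171), and it was lost in other settings as well. At day 10 against day 3, 8 of the 10 were called, 2 higher and 6 lower, where 31.4% of all probes were (16% higher and 15.4% lower). Pdk2 and Pdk4 had most of their change in that interval: Pdk2 was 4.14-fold lower at day 10 than at day 3 (-2.05, SE 0.17, limma adjusted p 3.33e-09) and Pdk4 2.43-fold lower (-1.28, SE 0.27, limma adjusted p 0.000587). Dlat was 3.50-fold lower over the same days (-1.81, SE 0.17, limma adjusted p 3.59e-08). These 2 sets of comparisons share the day 3 arrays.

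At day 28 most members were higher than at day 10. Against day 10, 9 of the 10 probes were called, 8 higher and 1 lower, where 30% of all probes were called (15% higher and 15% lower). Dlat was 4.00-fold higher at day 28 than at day 10 (2.00, SE 0.16, limma adjusted p 3.33e-09) and Pdk2 3.95-fold higher (limma adjusted p 2.13e-09). Pdk4 was 1.73-fold higher (0.79, limma adjusted p 0.018), a call that was lost without day 10 replicate 1 (adjusted p 0.0885), day 10 replicate 3 (0.0501) or day 28 replicate 4 (0.0777). Pdk3 was 2.06-fold lower (-1.04, limma adjusted p 8.41e-07). Pdk1 was the probe without a call (95% interval -0.33 to 0.34).

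Against control, 1 of the 10 probes was called at day 28, where 1.8% of all probes were (1.11% higher and 0.69% lower). Those 347 probes became 105 without day 28 replicate 3 and 772 without control 5. The arrays did not overlap for 3 of the 10, against 6.2% of all probes. The called probe was Pdk3, with 209, 223, 218 and 250.4 at day 28, all above the highest control at 204. The change was 0.45 (SE 0.11), 1.37-fold higher, with an adjusted p of 0.0362 by limma. The call was lost without control 1 or 2 or without day 28 replicate 2, 3 or 4, with adjusted p between 0.0869 and 0.147.

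Dlat and Pdk2 were below every control on all 4 day 28 arrays without a call. Dlat read 2360.0, 1747, 2282 and 2402 at day 28, with a difference of -0.37 (95% interval -0.67 to -0.07, limma adjusted p 0.195). Pdk2 read 1464, 1417, 1419.9 and 1211 at day 28, with a difference of -0.49 (95% interval -0.77 to -0.20, limma adjusted p 0.0686). Pdk4 read 3829, 2968, 2973 and 5246 at day 28, with a difference of -0.63 (95% interval -1.09 to -0.18, limma adjusted p 0.144). Against controls 1 to 3 alone, Pdk2 (-0.62, limma adjusted p 0.00959) and Pdk4 (-0.91, limma adjusted p 0.00759) were called lower at day 28, and the count was 3. It was also 3 without control 5. On the second principal component the controls left out, 4 and 5, lay nearer the day 28 arrays than controls 1 to 3 did. Controls 4 and 5 read 1765 and 1566 for Pdk2 and 5551 and 3224 for Pdk4. Pdp1 lay at 897, 787, 821 and 712 at day 28, with a difference of 0.40 (95% interval 0.07 to 0.72) and no call (limma adjusted p 0.21).

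The macrophage markers rose with Pdk3 at day 10, when 8 of 8 were called higher with a median of 2.19. Neutrophil markers (2 of 4 higher, median 1.40) and fibroblast markers (4 of 9 higher, median 0.30) rose in part on those arrays, and 4 of 9 endothelial markers were lower (median -0.29). At day 28 the macrophage sums (10965 to 14712) lay above those of controls 1 to 3 (6233 to 7163) and below that of control 5 (16237), and Pdk3 lay above every control. With controls 1 to 3 alone, 6 of 8 macrophage markers were called higher at day 28. Fibroblast sums at day 28 (40250 to 50920) lay above every control (28673 to 38532), with 3 of 9 markers called higher (median 0.51). Endothelial sums at day 28 (16459 to 17550) also lay above every control (11647 to 15232), with 1 of 9 called higher (median 0.23). Controls 4 and 5 had macrophage sums of 14037 and 16237, and their Pdk3 values of 184 and 188 lay within those of controls 1 to 3. At day 2, Pdk3 was 0.43 higher, and 0 of 8 macrophage markers were called higher or lower (median -0.05, sums 8693 to 11378). At day 3, Pdk3 was 0.76 higher, and 2 of 8 macrophage markers were called higher (median 0.24, sums 8875 to 15724). The sums at both early times lay within those of the 5 controls (6233 to 16237). The part of these cell types in the levels of Pdk3 at any of these times was not tested.

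**Figure D3:**
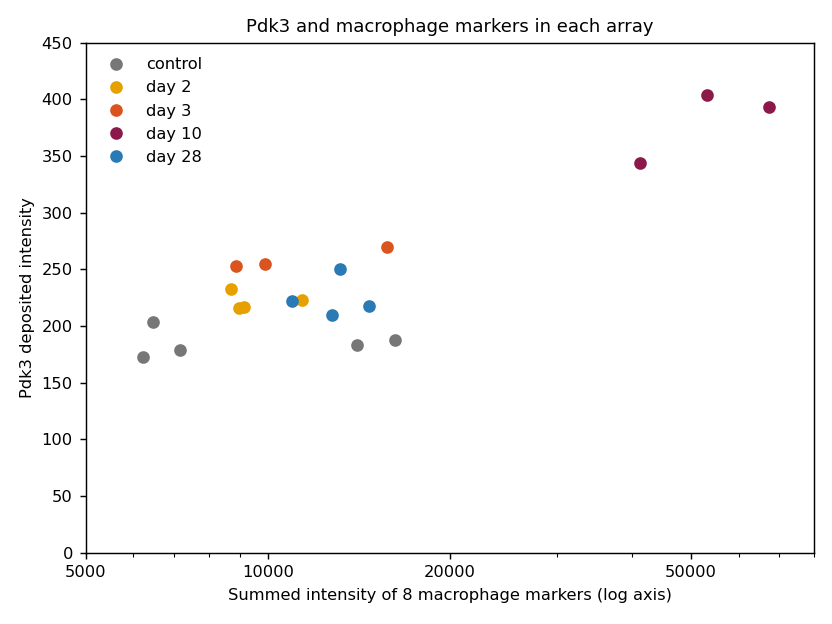
Deposited intensity of Pdk3 against the summed intensity of 8 macrophage markers, 1 point per array (19 arrays), coloured by group. The day 10 arrays lie at the upper right (344 to 403 for Pdk3), and the day 28 arrays lie above all controls in Pdk3, at macrophage sums (10965 to 14712) above controls 1 to 3 and below control 5.

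Heart muscle markers were also lower at day 10, where 6 of 9 were called lower, with a median of -1.20. Pdk1 and Pdp1 had no call on the same arrays. The part of a lower share of heart muscle RNA in the member values was not tested.

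Genes around the complex were taken from lists written with earlier results of these data known, and their counts stand beside the day 10 share over all probes, 18.1% lower and 17.7% higher, with a median of -0.03. The sister-complex list holds genes of the sister 2-oxoacid dehydrogenases, the kinase gene Bckdk, the phosphatase gene Ppm1k, and Gcsh and Gldc of glycine cleavage. Of its 10 tested genes, 1 was higher and 7 were lower at day 10, with a median of -1.11. Those lower included Bckdhb (-2.26) and Bckdha (-1.83), which form the first component of the branched-chain 2-oxoacid dehydrogenase, and Ogdh (-2.13), the first component of the 2-oxoglutarate complex. Gldc, of glycine cleavage, was the one higher (0.61), and its dimmer probe was not called (0.20). The Gldc call was lost with controls 1 to 3 alone (0.46, limma adjusted p 0.0794) and without day 10 replicate 1 (0.0715) or 2 (0.0513). Of 9 TCA cycle genes tested, 8 were lower and 1 was higher. Idh3a (-1.68) and Idh2 (-1.91), isocitrate dehydrogenases, and Mdh2 (-1.35), malate dehydrogenase, were lower, and Idh3b was 0.37 higher, a call that was lost without day 10 replicate 1 (limma adjusted p 0.0839).

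The genes that attach or supply the cofactors showed smaller differences. Of 10 tested genes of lipoate and thiamine supply, 6 were lower and none was higher at day 10, with a median of -0.39, where 18.1% of all probes were lower. Iba57 (-1.49), Bola3 (-1.12) and Glrx5 (-0.68), of iron-sulfur cluster assembly, were the 3 named by adjusted p. Of 6 tested genes of pyruvate entry and use, 3 were lower and 1 higher. Me1 (-1.12), a malic enzyme, Pcx (-0.58), pyruvate carboxylase, and Gpt2 (-0.52), an alanine aminotransferase, were lower, the last of these not without day 10 replicate 1 (limma adjusted p 0.171). Pkm (0.40), a pyruvate kinase, was higher, a call that was lost with controls 1 to 3 alone (0.32, limma adjusted p 0.09) and without day 10 replicate 1 (0.121) or 2 (0.131).

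Among known regulators of the kinase genes, more were lower than higher at day 10. Of 15 tested, 8 were lower and 2 higher at day 10, with a median of -0.46, where 18.1% of all probes were lower and 17.7% higher. Rxrg, a partner receptor of the PPARs, changed by -2.27, Esrrb, an estrogen-related receptor, by -1.83 and Ppargc1b, a coactivator of such receptors, by -1.90. Hif1a, the hypoxia factor, was 0.79 higher and Myc, on a dim probe (mean intensity 188), 0.53 higher. Among 14 tested PPAR target genes, 12 were lower and 2 higher, with a median of -1.18. Mlycd, which removes malonyl-CoA, changed by -2.47, Cpt1b, which brings fatty acids into mitochondria, by -2.40 and Plin5, a lipid droplet protein, by -2.52. Angptl4, a lipase inhibitor, was 1.41 higher, and Plin2, another lipid droplet protein, 0.48 higher, a call that was lost without day 10 replicate 1 (limma adjusted p 0.161). Against day 10, day 28 arrays had 7 of the 10 sister-complex genes, 8 of the 9 TCA cycle genes and 11 of the 14 PPAR targets higher.

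**Figure D4:**
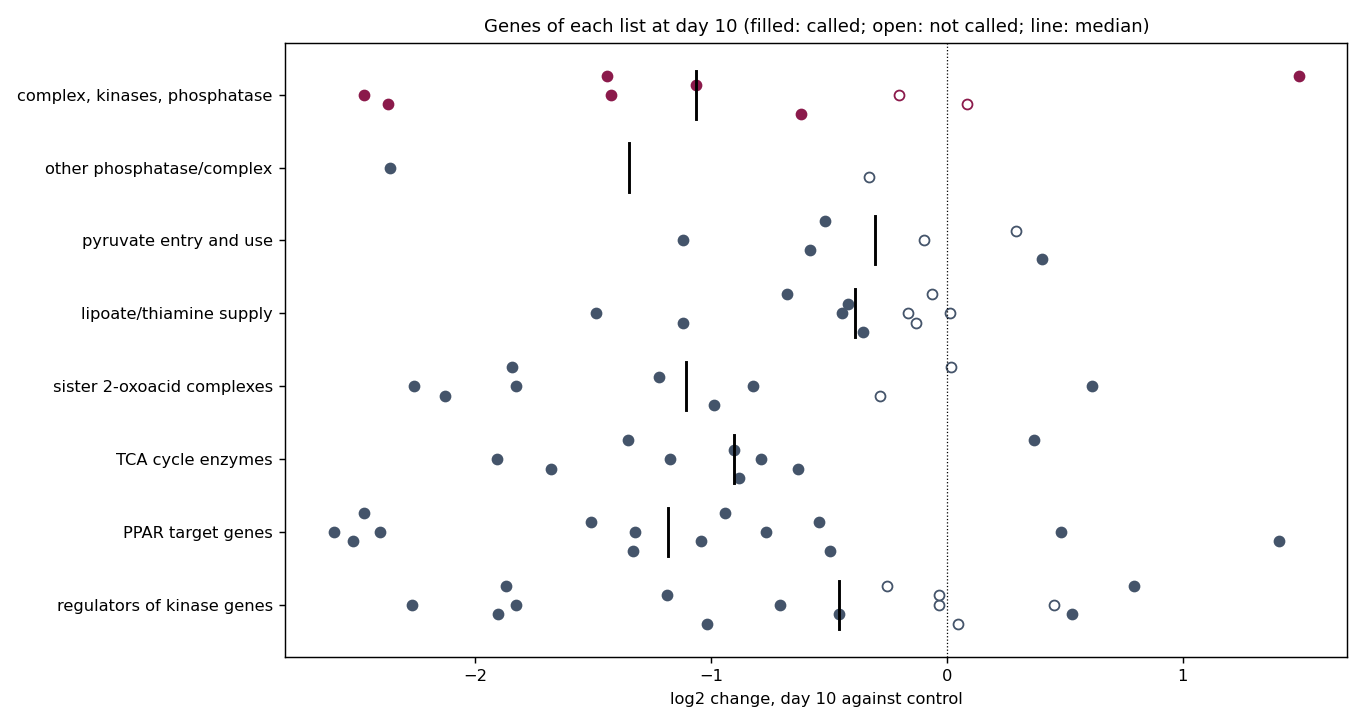
Change at day 10 against control (log2) of each gene of the complex, its kinases and phosphatase (9 genes, brighter Pdhb probe) and of 7 lists around it. Filled points were called, open points were not, and the bar is the list median, which is -1.07 for the complex and its regulators and -1.18 for PPAR targets.

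Genes whose levels followed the members over the 19 arrays were sought among 12660 genes, by Pearson's r as a description, since all genes that differ between groups share that structure. For Pdha1 they were Fh1 (0.948), fumarase of the TCA cycle, Reep5 (0.935), Uqcrc2 (0.932), a subunit of a respiratory chain complex, Slc25a12 (0.93), a mitochondrial aspartate and glutamate carrier, and Suclg1 (0.929), of the TCA cycle. For Pdk4 they were R3hdm2 (0.893), Dennd6b (0.893), Mapk1ip1 (0.888), Tmem201 (0.882) and Sptb (0.878). Among the members, the Pdhb probe ILMN_3116570 and Dld were the most alike (0.978), followed by Dlat and Pdk2 (0.961), the 2 Pdhb probes had 0.885, and Dlat and Pdk3 ran opposite (-0.904).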

How the data were processed

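Left ventricular RNA was hybridised to Illumina bead arrays, 1 per sample. The authors deposited linear intensity values for 25697 probes on 19 arrays, which they had quantile-normalized: sorted, every column held the same values (116.032 to 57814.4). The program used is not given in the sources used here. A second table, of scanner signals in 38 columns, carries codes that match no label. It was left out, and with it any detection calls.

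The intensities were corrected with limma's normexp (offset 50) and log2-transformed. Probes at or below the 25th percentile of mean intensity (162.92) were left out, which left 19272. The scale understates changes of dim probes. A model with a mean for each group was fitted to the 19 arrays with limma 3.58.1 under R 4.3.3 (moderated variances, residual degrees of freedom 14), for 7 comparisons, and p-values were adjusted by Benjamini-Hochberg over all 19272 probes. Nothing in the labels beyond sample numbers says that arrays of 1 group came from separate mice, so p-values measure only the spread between arrays, which may be technical. The number of arrays limits the precision.

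The members and lists were chosen with earlier results of these data known. All members were reported, and list genes were named by a rule: up to 3 called genes in each direction with the smallest adjusted p. List medians used the probe with the highest mean per gene. Promoters came from RefSeq (GRCm38.p6). Alternatives were another offset or none, other filters, the compared groups alone, the replicate number as a block, other variance models, array weights, controls 1 to 3 alone, 1 probe per gene and leaving out each array. Slide, date and batch are not in the labels. Plots used matplotlib 3.10.9 (Python 3.11.15).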

Additional observations from a re-analysis of the deposited data

Results flagged for a closer look

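In 3 of the 33 sets of member values from 1 probe in 1 group of 4 or 5 arrays, 1 array lay far from the others, by a gap to its neighbour that took a large share of the group's log2 range. Chance gives about 1 in 20. Pdha1 in controls had a share of 0.762, from control 1, the highest at 21052. Dlat at day 28 had a share of 0.841, from replicate 2, the lowest at 1747. Pdhx at day 2 had a share of 0.846, from replicate 1, the lowest at 145, on a probe that did not pass the filter on dim probes.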

How the results depend on the processing

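Of 37 called member values, each recomputed under the alternatives (1105 values in all), 1059 stayed called, 46 lost the call and 0 changed sign. The 8 called at day 10 against control stayed called in 239 of 239. Of 3628 recomputed values of the 121 list calls that the naming rule gave, 144 lost the call and 0 changed sign. The member count at day 2 (1 of 10 probes) was 2 without background correction and 2 with the filter at the 50th percentile, with Pdk1 added, and 0 with controls 1 to 3 alone. The count at day 28 against control (1) was 2 without background correction, 0 with the 2 compared groups alone, 4 with array weights and 3 with controls 1 to 3 alone. With the replicate number as a block it was 3, with Pdk2 (-0.56, limma adjusted p 0.0251) and Pdk4 (-0.84, limma adjusted p 0.0254) called. Same-numbered arrays did not deviate together on average (mean correlation -0.000724 over 33 pairs, 3 of them over 0.1). Of the 19 arrays, 5 correlated best with their own number, and the share expected by chance was not computed. These values show no pairing by number, but could miss a weak pairing. Leaving out 1 array gave counts of 1 to 3 at day 2, 5 to 7 at day 3, 8 to 8 at day 10, 0 to 3 at day 28, 2 to 6 at day 3 against day 2, 6 to 8 at day 10 against day 3 and 8 to 9 at day 28 against day 10. All probes called at day 28 against control were 347, and 1583 with array weights, 1874 with controls 1 to 3 alone and 816 with the block.

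Sign changes arose in values that were not called. Leaving out 1 array gave Dlat at day 2 values of -0.192 to 0.0138, Pdk4 at day 3 of -0.35 to 0.12, Pdk1 at day 10 of -0.00197 to 0.18, Pdk4 at day 3 against day 2 of -0.16 to 0.27, Pdk1 at day 3 against day 2 of -0.24 to 0.00873 and Pdk1 at day 28 against day 10 of -0.0363 to 0.0550. With controls 1 to 3 alone Pdk1 was -0.0321 at day 10 and -0.0287 at day 28. An offset of 16 gave Pdk4 at day 3 against day 2 a value of -3.17e-05, and Pdk1 at day 28 against day 10 was -0.0210 with the block and -0.00509 with array weights. The cause was not tested. The scanner table was not run, since its columns match no label.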

Other observations

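Some genes around the complex had a time course of their own. Of the 15 tested regulators, 6 were lower and 1 higher at day 3, where 14.3% of all probes were lower and 14.1% higher. Ppargc1a, of that list, changed by -2.22 at day 2 and -3.51 at day 3 (limma adjusted p 0.000463 and 2.63e-07). Its control arrays were widely spread, from 1359 to 5784. It was 1.64 higher at day 10 than at day 3. At day 3 Ppm1k, the phosphatase of the branched-chain complex, changed by -2.55, more than any subunit gene of the pyruvate complex at that time. Gpt2, an alanine aminotransferase that makes and uses pyruvate, was higher at day 3 (1.25) and lower at day 10 (-0.52, lost without day 10 replicate 1). At day 28 against control, Acot1, an acyl-CoA thioesterase, was still lower (-1.07, limma adjusted p 0.0017).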
